A study of Mus musculus with 2 samples.

Results

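Hair follicles hold 2 families of enzymes that harden proteins, the transglutaminases and the peptidylarginine deiminases, and their shared substrate trichohyalin. The genes described here were 4 transglutaminases (Tgm1, Tgm2, Tgm3, Tgm5), 4 deiminases (Padi1 to Padi4) and the trichohyalin genes Tchh and Tchhl1, chosen by their gene symbol in the platform annotation. These 10 genes had 16 probe sets, of 45037 on the array besides its controls, and were among 18193 named genes. The rule uses the symbol and no measured value. Follicles of mice at postnatal day 10 were compared, wild-type or transgenic for dnFGFR2-IIIb, which is built on the IIIb isoform of FGFR2, a receptor for fibroblast growth factors. Each genotype had 1 array, hybridised with total RNA of about 300 pooled follicles, about 100 per animal from 3 mice of different litters. The labels name neither the strain and sex nor the promoter and target cells of the transgene.

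Transglutaminases are calcium-dependent enzymes that join glutamine and lysine side chains of neighbouring proteins by a bond that proteases cannot cut. Deiminases, also calcium-dependent, turn arginine in proteins into citrulline, which removes a positive charge and loosens the fold of the protein. Trichohyalin is a large protein, rich in charged residues and glutamine, that fills the granules of the inner root sheath and of the medulla, the core of the hair shaft. There it is citrullinated, spreads among the keratin filaments and is cross-linked to itself and to them. Loss of TGM3, PADI3 or TCHH function in people causes uncombable hair, and a Tgm3 mutation gives the wavy coat of the wellhaarig mouse.

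Each value below is a signal, a linear intensity in arbitrary units with both arrays scaled to the same trimmed mean, and wild type is given first. Ratios are transgenic over wild type, on the log2 scale where so named. With 1 array per genotype there was no replicate spread and no test, and precision is limited by having 2 arrays in all, so the differences describe these 2 pools. Signals up to a floor of 10.5, the 40th percentile of all probe sets, were treated as not above background. A gene stood at its brightest probe set and was called 2-fold higher or lower where both signals exceeded the floor. As a measure of technical spread, different probe sets for 1 gene had log2 ratios with an SD of 0.35 for bright genes, 0.38 for those of middle brightness and 0.50 for dim ones. Because follicles were measured whole, fewer cells of a type and less RNA per cell cannot be told apart.

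Of the 10 genes, 9 exceeded the floor in both pools and Padi2 in wild type alone. In transgenic follicles Tchhl1 and Tgm3 read at least 2-fold lower and Tgm5 at least 2-fold higher. The same call was made for 1.58% (lower) and 1.60% (higher) of the 11565 genes measured above the floor in both pools. Among the 6759 genes with a brighter signal over 100, where Tchhl1 and Tgm3 lie, the share was 0.725% lower and 0.355% higher. Of the 10 log2 ratios, with that of Padi2 taken against the floor as a bound, 7 were below 0. Of the 14045 genes above the floor on at least 1 array, 6842 were below 0. The median of the 10 was -0.26, against 0.01 over all those genes. The 7 include Padi2, Tgm1 at -0.02 and Tgm2, whose probe sets disagreed in sign. The genes were put together with earlier results of these data known, so this count describes the group and does not set it apart from others.

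**Figure D1:**
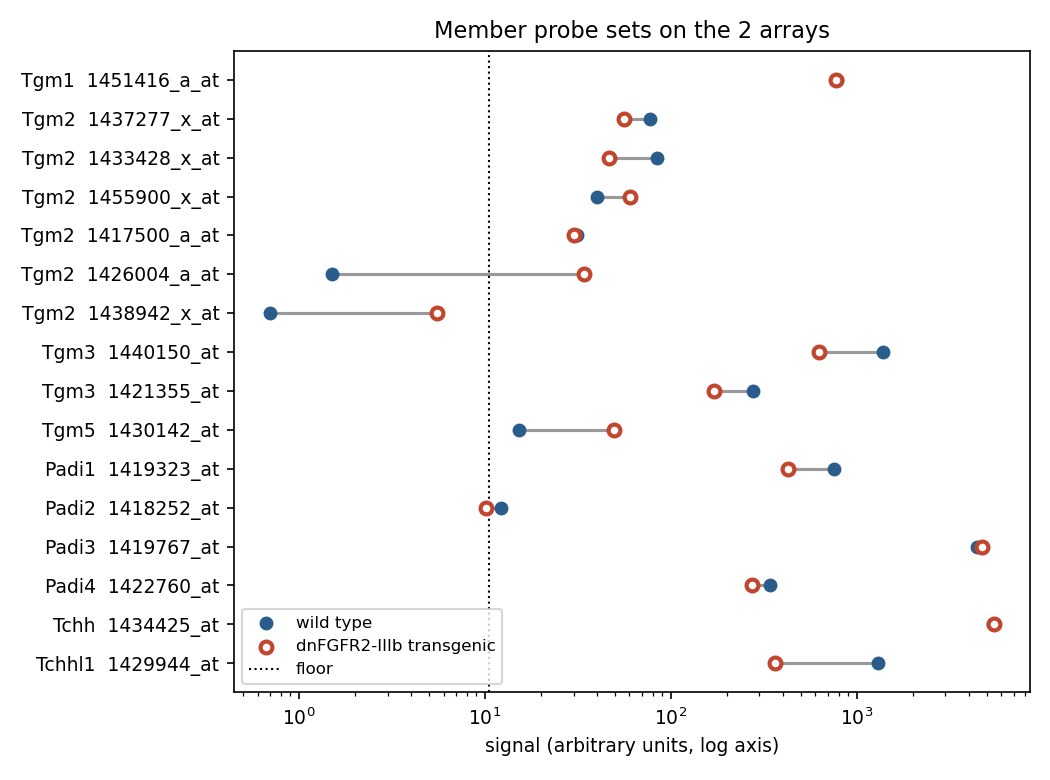
Signal (arbitrary units, log axis) of the 16 probe sets of the 10 genes, with filled points for the wild-type array, open points for the transgenic array and a dotted line at the floor of 10.5. Tchhl1, both probe sets of Tgm3 and Padi1 lie lower on the transgenic array, Tgm5 lies higher, and the points of Tgm1, Padi3 and Tchh lie almost on each other.

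The trichohyalin genes went separate ways. Tchh, which encodes trichohyalin itself, read 5430 in wild type and 5454 in the transgenic pool, a log2 ratio of 0.01. Of 153 other genes within 1.5-fold of its mean brightness, the central 90% had log2 ratios from -0.41 to 0.25, so Tchh lay in the middle of genes as bright. Tchhl1, a relative of trichohyalin in the same S100-fused type family, read 1296 and 365 and was 3.55-fold lower (log2 ratio -1.83). Only 4 of 1071 other genes of like brightness had a ratio as low or lower, and Tchhl1 was the 21st lowest of the 6759 genes with a brighter signal over 100. Each of these genes has a single probe set, so that no second measurement stands beside these ratios. Under the 5 scalings tried for the arrays as alternatives, the log2 ratio of Tchhl1 stayed between -1.97 and -1.64, and that of Tchh between -0.14 and 0.20, with a sign that depended on the scaling.

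Tgm3, the transglutaminase of the inner root sheath and hair shaft that is made as an inactive precursor and cut by a protease, was the other lower gene. Its brighter probe set, 1440150_at, read 1393 and 628, 2.22-fold lower (log2 ratio -1.15). Its other probe set, 1421355_at, annotated to the RefSeq transcript, read 278 and 171, 1.62-fold lower (log2 ratio -0.70). Both probe sets thus read lower on the transgenic array, and 1 of them passed 2-fold. Of 868 other genes within 1.5-fold of its brightness, 6 had a ratio as low or lower, and Tgm3 ranked 39th from the lowest among the 6759 bright genes. With the arrays scaled to equal spiked hybridisation controls the log2 ratio was -0.96, and with the mean over both probe sets it was -0.92, so the 2-fold call was lost in both cases while the direction was kept.

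Padi1, a deiminase of the epidermis and the inner root sheath, followed Tgm3 in size. It read 758 and 425, 1.79-fold lower (log2 ratio -0.84), and so did not pass 2-fold. It was the 82nd lowest of the 6759 bright genes, and 7 of 1385 other genes of like brightness had a ratio as low or lower. Its log2 ratio lay between -0.98 and -0.64 under the alternative scalings. Padi3, the deiminase that acts on trichohyalin, read 4463 and 4703, a log2 ratio of 0.08 within the -0.41 to 0.26 of the central 90% of 181 genes as bright, and its sign turned to -0.07 with equal medians. Padi3 and Tchh, the enzyme and the substrate that cause uncombable hair when lost, thus both read within 1.05-fold on the 2 arrays, whereas Tgm3, the third gene of that disorder, did not.

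Padi4, a deiminase best known from the nuclei of neutrophils, read 341 and 275, a log2 ratio of -0.31, which is smaller than the technical spread of 0.35. Of 2130 genes of like brightness, 243 had a ratio as low or lower. Markers of neutrophils and macrophages were few. Of 12 on the array, 4 exceeded the floor in wild type and 7 in the transgenic pool, with summed signals of 198 and 239, and Ptprc, Itgam, Mpo, Ltf and Cxcr2 lay under it on both. Elane, Camp and Ngp exceeded it in the transgenic pool alone, at 12.3, 14.9 and 12.7. These lie under the brightest bacterial control of that array, 15.8, so the higher count is within background. The 4 above the floor on both arrays were Lyz2 (21.6 and 32.8), Adgre1 (11.8 and 19.3), Csf1r (73.3 and 74.8) and Cd68 (51.7 and 45.3). Of these only Cd68 read lower. The part of such cells in the Padi4 signal was not tested. Padi2, a deiminase of many tissues, read 12.2 and 10.1, at the floor, so its ratio is only a bound near 0 and is not described further.

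Tgm1, the membrane-bound transglutaminase of the cornified envelope, read 781 and 772 with 1 probe set. Its log2 ratio of -0.02 equalled the median of the 1129 other genes of like brightness, and it lay between -0.16 and 0.17 under the alternative scalings. Tgm5, a transglutaminase of the suprabasal epidermis, read 15.3 and 49.8, 3.25-fold higher (log2 ratio 1.70). Of 1877 other genes of like brightness 9 had a ratio as high or higher. Of 27 bacterial control probe sets, which have no target in the mouse, the brightest read 8.50 and 15.8. Both signals of Tgm5 lay above those of its own array, but the wild-type one was close to this range. The size of its ratio is therefore uncertain. With the floor at the 60th percentile, 27.7, which lies above its wild-type signal, only a bound of at least 0.85 on the log2 scale remained. Among genes no brighter than 100 on either array, 3.35% were 2-fold higher.

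The measured markers of the suprabasal epidermis read higher beside Tgm5. Of 6 on the array, 3 exceeded the floor, namely Krt10, Krt77 and the loricrin gene Lor, with log2 ratios of 0.59, 1.94 and 0.73. Krt77 read 16.6 in wild type, close to the floor. The summed signal of all 6 markers was 258 and 429, while Krt1, Krt2 and Flg lay under the floor on both arrays. Of the 12 measured cornified envelope substrates described below, which include Krt10 and Lor, 9 read lower and 3 higher. The part of the epidermal markers in the ratio of Tgm5 was not tested. Tgm1 and Padi1, which the epidermis also expresses, did not read higher. Padi1 is a gene of the inner root sheath as well, so such whole-follicle signals cannot decide the part of the epidermis.

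Tgm2, tissue transglutaminase, gave no single answer over its 6 probe sets. Probe set 1437277_x_at read 77.8 and 56.4 (log2 ratio -0.46) and 1433428_x_at read 84.7 and 46.7 (-0.86). Probe set 1417500_a_at read 31.2 and 30.1 (-0.05). In the other direction, 1455900_x_at read 40.3 and 60.3 (log2 ratio 0.58). Probe set 1426004_a_at also read higher, at 1.5 and 34.0, which is at least 3.24-fold higher against the floor, and 1438942_x_at lay under the floor on both arrays. The probe sets thus disagreed in sign, and the mean over the 5 above the floor was a log2 ratio of 0.18 against -0.46 at the brightest. Those with _x in their name can share signal with other transcripts. Fibroblasts and endothelium express Tgm2. The 6 fibroblast markers had summed signals of 2098 and 2916, and the 5 endothelial ones 67.3 and 91.2, with Pecam1 under the floor on both arrays. Of the fibroblast markers 4 read higher, with Dcn the brightest (985 and 1590). The other 2, Lum (14.1 and 11.2) and Pdgfra (51.6 and 46.4), read lower. Among the endothelial markers Cdh5 read 13.7 and 42.3, whereas Tek read 35.4 and 31.5, so that they did not move together. Their part in the Tgm2 signals was not tested.

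**Figure D2:**
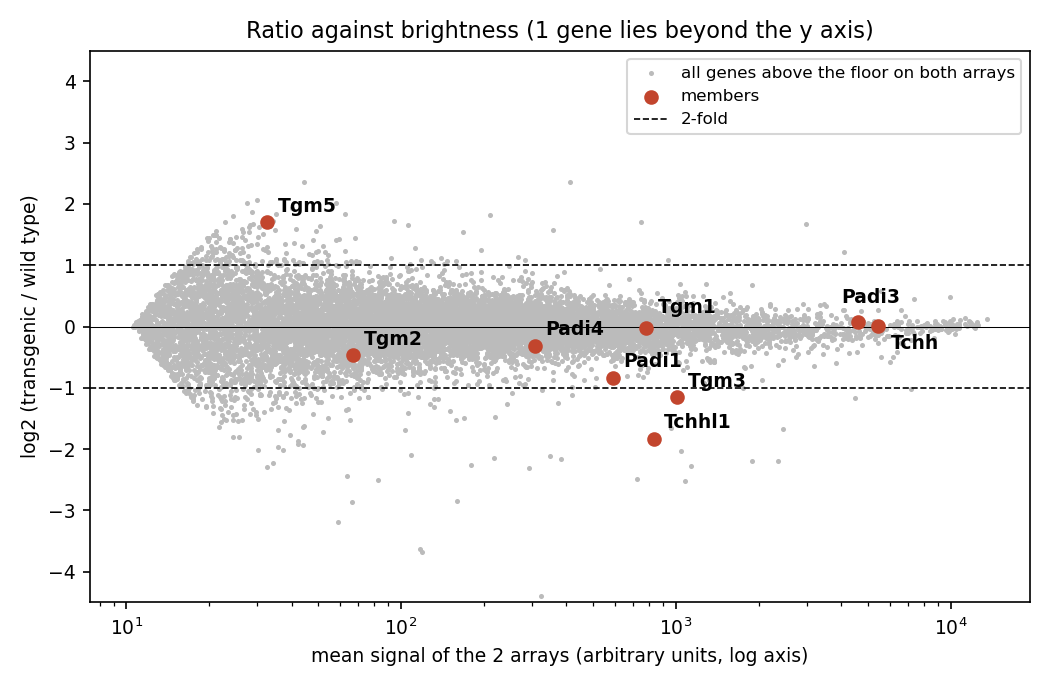
Log2 ratio of transgenic over wild-type signal against the mean signal (arbitrary units, log axis) for the 11565 genes over the floor in both pools, in grey, and the 9 of the described genes among them, in red and named. Dashed lines mark 2-fold and 1 gene lies beyond the axis. Tchhl1, Tgm3 and Padi1 lie under the band of genes as bright, and Tgm5 lies among dim genes, where ratios scatter widely.

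The tissue carried the markers of the inner root sheath, in which Tgm3, Padi1, Padi3 and Tchh are known to act. All 6 inner root sheath markers exceeded the floor on both arrays, with summed signals of 52401 and 51677, a ratio of 0.986. The brightest of them, Krt25, read 12445 and 12716, near the highest signals of the arrays, 13966 and 14815. Tgm3, Tchhl1 and Padi1 were far dimmer, so these keratins are no like-brightness reference for them. Of 7 measured keratins of the inner root sheath, the filament proteins to which trichohyalin is bound, 0 were 2-fold apart. The 7 are the same 6 markers with Krt26 added, so they are no separate evidence. Their log2 ratios ran from -0.27 for Krt72 to 0.06 for Krt71, with Krt26 at -0.15 and Krt28 at -0.05. The companion layer, which lies against the inner root sheath, had summed signals of 7480 and 6202 over Krt75 and Krt6a. The 6 hair shaft markers on the array summed to 54812 and 57947. Tchh and Padi3 read within the central 90% of genes of like brightness, and Tgm3, Tchhl1 and Padi1 read below it. The lower genes were singled out by their ratios, so their distance from the keratins is no separate result.

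Among other enzymes of the same families, Tgm6, a transglutaminase known from the nervous system, was well above the floor on both arrays. It read 307 and 170, 1.81-fold lower, and its log2 ratio of -0.85 lay between those of Padi1 and Tgm3. F13a1, which encodes a subunit of clotting factor XIII, read 14.6 and 20.2 (log2 ratio 0.47), and Epb42, an inactive relative in the red cell membrane, read 13 and 1.70. Tgm4, F13b and Padi6 lay under the floor on both arrays. Of the 6 family genes on the array 2, Tgm6 and F13a1, could be called, and both were less than 2-fold apart. Epb42 has only a bound, which reached a log2 ratio of -2.22 with the floor at the 20th percentile. Of 3 other S100-fused type proteins on the array, Flg and Hrnr lay under the floor on both, and repetin (Rptn), a cornified envelope protein, read 50.7 and 20.4, 2.49-fold lower (log2 ratio -1.31). Its other probe sets lay at or near the floor, at 8.30 and 12.0 for the brighter of them. The 2-fold call of Rptn was lost with the mean over probe sets (-0.56) and with a pseudocount in place of the floor (-0.99). It was also lost with the floor at the 60th percentile, 27.7, which lies above its transgenic signal, so that -0.87 is only a bound.

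Substrates of transglutaminases in the cornified envelope, the cross-linked protein shell of flattened keratinocytes, read lower in part. Of 14 on the array 12 exceeded the floor. Among these 4 passed 2-fold toward lower and 0 toward higher, at a median log2 ratio of -0.39. Over all genes above the floor in both pools the shares were 1.58% lower and 1.60% higher. The 4 called lower were Sprr1b (1846 and 321, -2.52), Sprr2h (1888 and 390, -2.28), involucrin (Ivl, 3110 and 683, -2.19) and the stefin Csta1 (3861 and 848, -2.19). A second probe set of Ivl gave -2.07. Sprr1a, the brightest of the 12, read 9373 and 9614 (0.04). Evpl, Ppl and Cdsn gave -0.16, -0.22 and -0.44. Sprr1b and Sprr2h have close relatives whose transcripts can add to their signal. The list was chosen with these values known.

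Proteases and inhibitors that act on transglutaminase processing differed less. Cathepsin L (Ctsl), which can activate TGM3, read 3966 and 3138 (log2 ratio -0.34), and its inhibitor cystatin M/E (Cst6) read 1240 and 1382 (0.16). Legumain (Lgmn), a protease that the same inhibitor blocks, read 261 and 149 (log2 ratio -0.80), and Cst3 gave -0.29. None of the 7 measured genes of this group was 2-fold apart. Of 9 transcription factors of the inner root sheath and medulla 0 were 2-fold apart, with a median of 0.03. Gata3, which specifies the inner root sheath, read 589 and 542 (log2 ratio -0.12), and Hoxc13 read 655 and 767 (0.23). Foxq1, a factor of the medulla, read 408 and 257 (-0.67, and -0.27 at its other probe set), and Sox21 read 409 and 557 (0.45, and 0.06 at its other probe set).

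**Figure D3:**
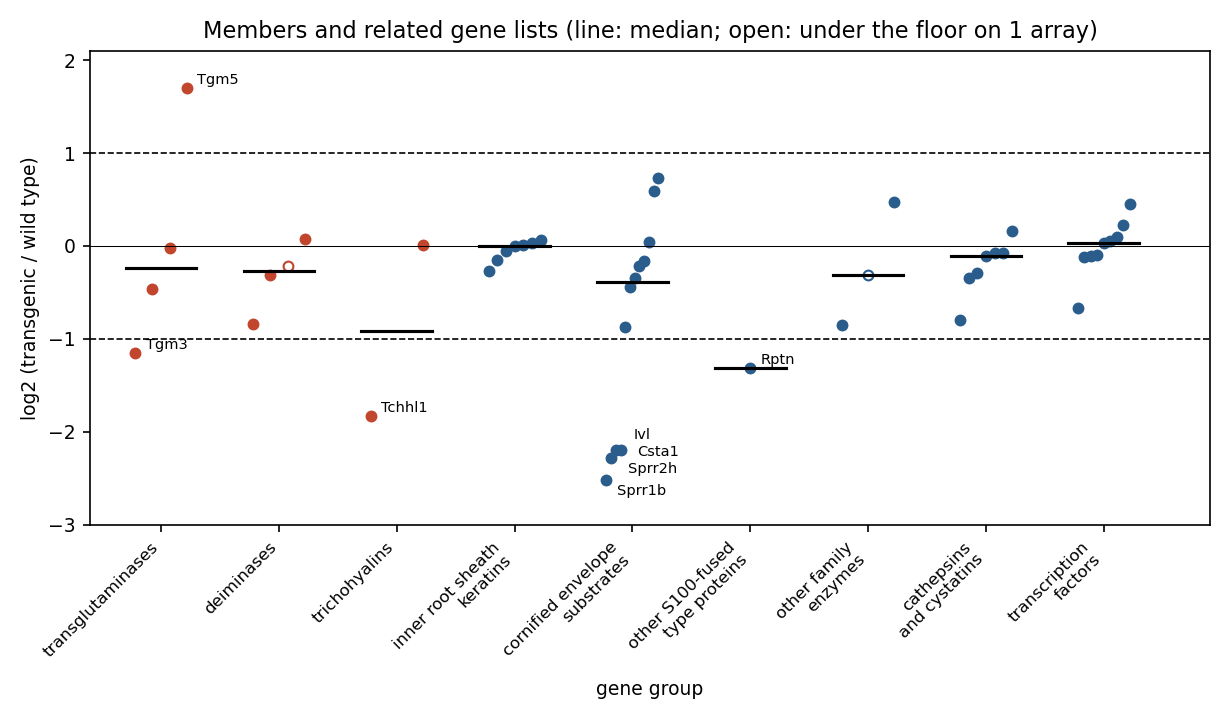
Log2 ratio of transgenic over wild-type signal for each gene above the floor on at least 1 array, at its brightest probe set, in the described families (red) and in 6 related gene lists (blue). Horizontal lines are medians, open points lie under the floor on 1 array, and dashed lines mark 2-fold. The inner root sheath keratins stay within -0.27 and 0.06, while the lower genes are Tgm3, Tchhl1, Rptn and 4 cornified envelope substrates.

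The genes lie in clusters, which allows neighbours to be compared. Tchh and Tchhl1 are adjacent on chromosome 3, in the epidermal differentiation complex, in the gene order of assembly GRCm38.p6. Rptn is the third gene before Tchh and S100a10, which encodes a calcium-binding protein that transglutaminases can cross-link, is the third after Tchhl1. S100a10 read 2649 and 1450 (log2 ratio -0.87), with -0.63 at a second bright probe set and 0.28 at a dim one, which read 32.6 and 39.5. Going along the chromosome, the log2 ratios were thus -1.31 for Rptn, 0.01 for Tchh, -1.83 for Tchhl1 and -0.87 for S100a10, with Tchh near 0 between measured neighbours that read lower. The deiminase genes lie together on chromosome 4 in the order Padi6, Padi4, Padi3, Padi1 and Padi2, with log2 ratios of -0.31 for Padi4, 0.08 for Padi3 and -0.84 for Padi1. Neighbours there thus also differed from each other. Of 39 genes within 3 places of the described genes that are not among them, 14 were on the array, 12 exceeded the floor on both arrays, 1 (Rptn) was 2-fold lower and 0 were higher.

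The promoters of the lower genes Tgm3 and Tchhl1 are shown beside those of Tchh and Padi3, which read alike on the arrays, so that the sequences can be compared. They are the 250 bases before an annotated start in the RefSeq table of GRCm38.p6, printed 5′ to 3′ on the strand of the gene. Capitals mark matches on either strand to the motifs named after them.
Tgm3, chr2:130012090-130012339, plus strand: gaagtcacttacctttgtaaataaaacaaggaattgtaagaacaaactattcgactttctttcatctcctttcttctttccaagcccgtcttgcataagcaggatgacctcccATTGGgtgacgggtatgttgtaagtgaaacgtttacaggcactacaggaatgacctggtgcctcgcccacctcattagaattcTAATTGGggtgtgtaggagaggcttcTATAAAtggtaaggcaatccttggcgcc
Tchhl1, chr3:93468504-93468753, plus strand: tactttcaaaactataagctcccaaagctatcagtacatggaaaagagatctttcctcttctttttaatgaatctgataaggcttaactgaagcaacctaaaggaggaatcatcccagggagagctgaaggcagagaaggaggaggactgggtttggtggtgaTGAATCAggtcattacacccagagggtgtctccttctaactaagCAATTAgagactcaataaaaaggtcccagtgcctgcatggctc
Tchh, chr3:93442080-93442329, plus strand: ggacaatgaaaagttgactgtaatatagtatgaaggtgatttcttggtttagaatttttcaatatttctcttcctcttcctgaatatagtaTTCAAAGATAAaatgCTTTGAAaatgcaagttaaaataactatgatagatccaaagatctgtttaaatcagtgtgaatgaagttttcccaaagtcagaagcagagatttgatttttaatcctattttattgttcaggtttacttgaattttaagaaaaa
Padi3, chr4:140810649-140810898, minus strand: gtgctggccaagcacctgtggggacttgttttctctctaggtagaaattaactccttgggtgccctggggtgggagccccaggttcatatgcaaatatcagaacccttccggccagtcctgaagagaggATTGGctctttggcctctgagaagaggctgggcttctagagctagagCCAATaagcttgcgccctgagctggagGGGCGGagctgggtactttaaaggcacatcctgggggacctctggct

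Promoter windows were found for 9 of the 10 genes, all but Tgm2, and 8 plain motifs were searched in the 10 windows. They were the TATA box (TATAAA), the CCAAT box (CCAAT), the GC box (GGGCGG), AP-1 (TGANTCA), the core of GATA factors (AGATAA), a homeodomain core (TAATTG), LEF/TCF (CTTTGAA) and an E-box (CAGCTG). Tgm3 held TATAAA with its first base at -28, where -1 is the last base before the start, CCAAT on the reverse strand at -137 and -52, and TAATTG at -54, which overlaps the latter. Tchhl1 held TAATTG on the reverse strand at -43 and an AP-1 match at -87. TAATTG occurred in 7.17% of all 32851 windows of this length, and among the described genes in those of Tgm3 and Tchhl1. Tchh held CTTTGAA at -144 and on the reverse strand at -159, the latter overlapping AGATAA at -154, and 4.46% of all windows held CTTTGAA and 9.99% AGATAA. Padi3 held CCAAT at -74 and on the reverse strand at -121, and GGGCGG at -47. Padi4 held TATAAA at -31 and AP-1 at -54, which 12.4% and 6.75% of all windows held, and the window of Padi1 held none of the 8. CCAAT occurred in 33.8%, GGGCGG in 32.7% and CAGCTG in 13% of windows. The window of Tchh had a GC content of 27.6%, against 43.6% for Tchhl1 and 44.0% for Tgm3, and a median of 52.4% over all windows. These matches describe the letters and show no binding. The Tgm3 window lies inside the RefSeq record of the gene, which begins farther upstream.

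Genes whose pair of signals was most like that of a called gene were found by their distance in the plane of both log2 signals, over 2 arrays. The closest to Tchhl1 were Tspan3 (1461 and 463, distance 0.38), S100a8 (1671 and 411, 0.40) and Sprr1b (1846 and 321, 0.54). The closest to Tgm3 were Krt23 (1318 and 803, distance 0.36), 1110038B12Rik (1230 and 819, 0.42) and Tuba8 (1215 and 815, 0.42), which were all less than 2-fold lower. The closest to Tgm5 were Acvr2b (16.2 and 50.3, distance 0.08, but a log2 ratio of 0.19 by a further probe set), Apoc4 (15.9 and 52.4) and Mblac1 (14.9 and 46.2). Such likeness rests on 2 values a gene.

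**Figure D4:**
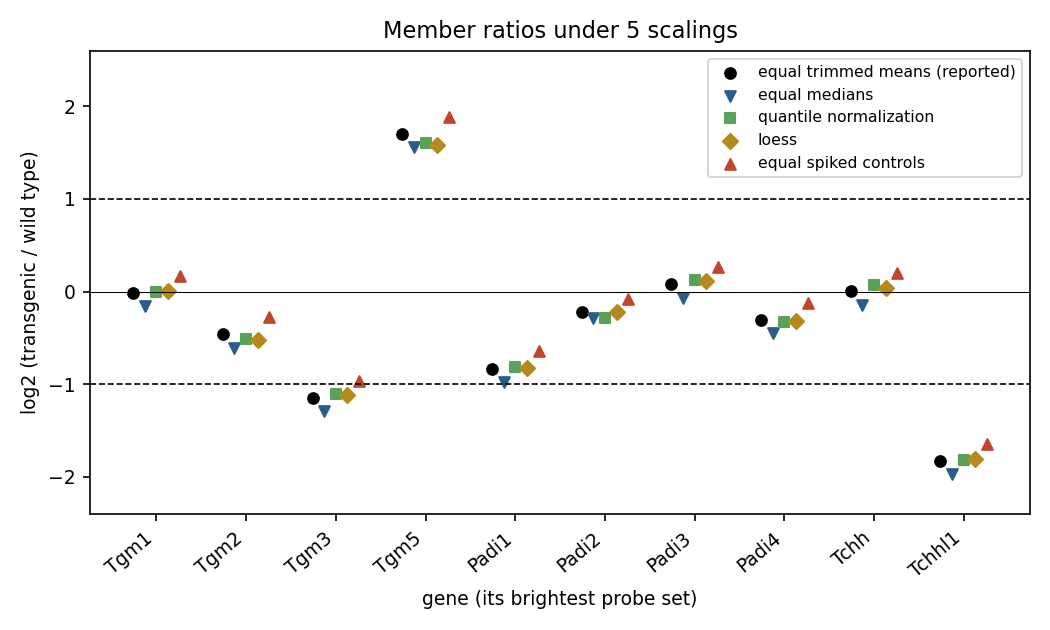
Log2 ratio of transgenic over wild-type signal of the 10 genes, at their brightest probe set (Padi2 against the floor), under the reported scaling and 4 others, with dashed lines at 2-fold. Tchhl1 and Tgm5 stay beyond 2-fold under all 5, Tgm3 crosses it with equal spiked controls (-0.96), and Tgm1, Padi3 and Tchh change sign.

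The pools also differed in ways that touch every ratio. The Y-linked gene Eif2s3y read 191 and 0.400, the latter under the floor. Xist, the RNA that coats the silenced X chromosome of females, read 352 and 1146. By these markers the wild-type pool held both sexes and the transgenic pool females only. Sex and genotype thus cannot be told apart in these ratios. The 3′ to 5′ signal ratio of beta-actin, a measure of RNA integrity, was 1.89 and 2.06. Over all genes, the median log2 ratio was 0.01 as reported, -0.13 with equal medians and 0.19 with equal spiked controls. The part of these differences in the ratios of the described genes was not tested. Fgfr2 read 197 and 368 at its brighter probe set, which does not check the labels, since whether it reads the transgene is not known here.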

How the data were processed

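Follicle RNA of wild-type and dnFGFR2-IIIb transgenic mice was hybridised to Affymetrix mouse expression arrays, 1 per group. The authors deposited 1 linear intensity per probe set. The deposited values had a 2% trimmed mean of 100 on each array. No source used here gives the algorithm that summarised the probes.

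The 64 control probe sets were left out, and both arrays were set to the same 2% trimmed mean over the others. Signals under the floor of 10.5 (40th percentile) were set to it before log2. A ratio with 1 signal under the floor is a bound, written "at least". Of the other probe sets, 34945 had 1 gene symbol, 932 several and 9160 none in the platform annotation, and 34741 matched the RefSeq table of GRCm38.p6 by gene identifier. No probe set with several symbols was named.

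All probe sets of the 10 genes are reported. From each of 6 related lists, up to 4 genes with the largest absolute log2 ratio were named, with the 3 nearest genes in signal to each called gene and genes within 3 places of a described gene. Genes named beyond this, such as markers and the sex-linked genes, were chosen after their values were seen. The genes and lists were chosen with earlier results of these data known. The alternatives were 5 scalings (1 without rescaling), 3 other floors, a pseudocount, 2 ways to represent a gene, thresholds of 1.5-fold and 3-fold, and counting probe sets. The calling procedure was tested on simulated data, with changed genes well above the floor and less noise than the spread between probe sets. It therefore does not bear on calls near the floor, such as that of Tgm5. Python 3.11.15, numpy 2.4.6, pandas 2.3.3, scipy 1.17.1 and statsmodels 0.14.6 were used.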

Additional observations from a re-analysis of the deposited data

How the results depend on the processing

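The count of 2 genes at least 2-fold lower, Tchhl1 and Tgm3, was within 1.5 times of its value under 11 of 14 alternatives, and came to 3 at 1.5-fold, with Padi1. It was 1, Tchhl1, with equal spiked controls, with the mean over probe sets and at 3-fold. Several alternatives could not drop either gene, so 11 of 14 does not measure robustness. The other floors lie far below the signals of both genes, and the 1.5-fold threshold can only add genes. The rescaling changed the deposited signals by factors of only 1.0001 and 0.9999, so leaving it out could hardly alter any result. The count of 1 gene higher, Tgm5, was kept under 12 of 14 alternatives and was 0 with the floor at the 60th percentile or at 50, which lie above its wild-type signal. The median log2 ratio of -0.26 became -0.37 with equal medians, -0.10 with equal spiked controls, -0.39 with a floor of 50 and -0.12 with the mean over probe sets, and moved by at most 0.1 under the other 7 of 11. It was negative throughout. Beyond the differences given with each gene, S100a10 reached -1.01 with equal medians and -0.41 with the mean over probe sets, and Rptn -0.02 with a floor of 50, where the floor itself sets the value. No gene called 2-fold apart, among those described and those named from the lists, changed sign under any of these alternatives. Equal medians gave 296 genes lower and 115 higher among all genes, and equal spiked controls 103 and 313, against 183 and 185. At a floor of 50 the counts were 37 and 22. Signal over background limits Tgm5, Padi2, F13a1, Epb42 and Rptn. No paired analysis was possible because each group has 1 array.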
